A study of Homo sapiens with 3 samples.

Results

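The genes described here are the 108 symbols of the form LINC followed by digits, the systematic names given to long intergenic non-coding RNAs, that were measured at 5 or more counts per 1000000 UMIs (CPM) in at least 1 of 3 single-cell libraries. They are 108 of 832 LINC symbols among the 31113 symbols in the files, and 108 of 12612 symbols of any kind that reached that level. The members were chosen by their highest CPM, so that no member is low in all 3 libraries, and their levels are given as a description. Just inside the threshold lay LINC01483 (5.01 CPM in its highest library), LINC00877 (5.05 CPM) and LINC00907 (5.15 CPM). Just outside lay LINC00534 (4.52 CPM), LINC00492 (4.94 CPM) and LINC01560 (4.94 CPM). Of the members, 78 reached 10 CPM. RefSeq now annotates 9 members as protein coding, so that the name does not describe all of them.

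Long intergenic non-coding RNAs are transcribed from stretches between coding genes, are usually spliced and polyadenylated like messenger RNA, and carry no long open reading frame. Many are retained in the nucleus, and as a class they are known for low levels and for being present in fewer tissues than messenger RNAs. Some act on the transcription of a neighbouring gene, some host a microRNA in their transcript, and some turned out to encode a small protein.

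The cells were H9, an established human embryonic stem cell line, processed by inDrop with the TruDrop protocol. In this method each cell shares a droplet with a barcoded bead and each captured RNA molecule carries a unique molecular identifier (UMI). There was 1 library each for day 0, labelled human embryonic stem cell, and for day 2 and day 6, both labelled as differentiated stem cell or neural progenitor cell. The protocols name the growth medium mTeSR and the STEMdiff SMADi Neural Induction Kit, which turns pluripotent cells towards neural progenitors by inhibiting SMAD signalling, and do not say which library received which. With 1 library per label, no difference has a replicate check and no test between labels was possible. Intervals in brackets are 95% intervals that cover counting error only.

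After filtering, 2290, 2419 and 4180 cells with 28341741, 20626135 and 41268018 UMIs were kept in the day 0, day 2 and day 6 labelled libraries, and values in threes below follow this order. Median UMIs per cell were 8770, 3814 and 4429, and 3 UMIs correspond to 0.106, 0.145 and 0.0727 CPM. The markers went against the labels: POU5F1, the pluripotency factor OCT4, stood at 2.22, 1229 and 268 CPM, and PAX6, a neural progenitor factor, at 176, 6.64 and 27.9 CPM. The summed level of 6 pluripotency markers was 114, 2658 and 712 CPM, that of 6 neural progenitor markers 473, 25.5 and 93.6 CPM, and that of 4 neuron markers 19.7, 22.6 and 108 CPM, with the neuronal tubulin TUBB3 at 0, 1 and 1 UMIs. The libraries are therefore named by their labels, and no difference is given as a change over time. Pairs of libraries shared 38 (day 0 and day 2), 72 (day 2 and day 6) and 82 (day 0 and day 6) kept barcodes, and 2, 39 and 154 cells lay in clusters made up mostly of another library.

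The first 240 bases of 3 member transcripts are shown, 1 for an RNA that led in the day 0 labelled library (LINC01021), 1 for an RNA that led in the day 6 labelled one (LINC00882) and 1 for an RNA at nearly the same level in all 3 (LINC01492). Each is the longest GENCODE 29 transcript of its gene, written 5′ to 3′ from the GRCh38 genome, with the bases of the second exon in capitals. The transcripts lie at chr5:27472292-27486146 (plus strand, 3 exons, LINC01021), chr3:106836811-107240632 (minus strand, 8 exons, LINC00882) and chr9:103140523-103325034 (minus strand, 10 exons, LINC01492).
LINC01021: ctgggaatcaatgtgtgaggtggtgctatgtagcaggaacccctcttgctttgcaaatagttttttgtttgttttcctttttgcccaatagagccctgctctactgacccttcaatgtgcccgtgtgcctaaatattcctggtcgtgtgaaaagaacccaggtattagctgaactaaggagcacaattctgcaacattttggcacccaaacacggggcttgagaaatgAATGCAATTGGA
LINC00882: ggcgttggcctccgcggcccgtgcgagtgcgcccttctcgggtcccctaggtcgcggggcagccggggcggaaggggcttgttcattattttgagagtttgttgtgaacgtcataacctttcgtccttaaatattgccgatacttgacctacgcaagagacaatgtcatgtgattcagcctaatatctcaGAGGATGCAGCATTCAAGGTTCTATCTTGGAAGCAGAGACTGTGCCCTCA
LINC01492: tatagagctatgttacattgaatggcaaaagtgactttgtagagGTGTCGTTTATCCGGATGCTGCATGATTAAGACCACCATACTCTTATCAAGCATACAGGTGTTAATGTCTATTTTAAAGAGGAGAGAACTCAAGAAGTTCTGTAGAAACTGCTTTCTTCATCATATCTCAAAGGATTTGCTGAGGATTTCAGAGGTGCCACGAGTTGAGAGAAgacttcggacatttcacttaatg

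LINC RNAs that led in the day 2 labelled library, the one with the highest pluripotency markers, included members known from pluripotent cells. LINC00678 stood at 0.0353 CPM (1 UMI) in the day 0 labelled library, 104 CPM (99.2–108) in the day 2 labelled one and 0.606 CPM (0.392–0.894) in the day 6 labelled one. It was thus high in 1 library, 171-fold above the next (115–265), and 8 of its 25 UMIs in the day 6 labelled library fell in cells that clustered with another library, since 17 UMIs were left without them. LINC00989, at chr4:79492593-79576460, stood at 0.776, 13.9 and 0.388 CPM, 17.9-fold (11.6–29.1) above the next library. Of its 22 UMIs in the day 0 labelled library, the next over all kept cells, 6 were left once cells with a shared barcode were removed. This took the ratio of LINC00989 to the day 0 labelled library to 62.4. That library was then the lowest, and the day 6 labelled one was the next. In cells of 3000 to 10000 UMIs the ratio to the day 0 labelled library was 62.2, resting on 1 UMI there. It was 6.36 with at most 10% mitochondrial UMIs. That last setting took the ratio for LINC00678 to 102. LINC01194 stood at 1.62, 144 and 12.1 CPM, 11.9-fold (10.8–13.1) above the next library. LINC01356, at chr1:112820169-112850643, stood at 2.33, 24.5 and 5.82 CPM, 4.22-fold (3.61–4.94) above the next. For LINC01194 and LINC01356 the day 6 labelled library lay between the others, the place that POU5F1 also took.

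For other members that led in the day 2 labelled library, the day 6 labelled one was closer. LINC00371, at chr13:51082119-51172388 and now annotated as the coding gene C13orf42, stood at 2.36 CPM (1.83–3.0), 472 CPM (462.5–481) and 278 CPM (273–283), so that it was 200-fold (157–258) higher in the day 2 labelled library than in the day 0 labelled one. It was high in the 2 libraries in which POU5F1 was high. LINC01315 stood at 10.9, 31.8 and 16.2 CPM, 1.96-fold (1.76–2.19) above the next library. LINC01619, at chr12:91984976-92142831, stood at 32.2, 190 and 91.8 CPM. Its gene overlaps the coding gene BTG1 on the same strand, so that their reads may not be separable. The order of LINC01619 in the day 2 and day 6 labelled libraries depended on the cells kept: the ratio of 2.07 between them was 1.21 in cells of 3000 to 10000 UMIs and 0.850 with at most 10% mitochondrial UMIs.

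The list of 8 LINC RNAs reported in pluripotent cells had 3 members at 5 CPM or more, LINC00678, LINC00371 and LINC01356. All 3 were at least 2-fold higher in the day 2 labelled library than in the day 0 labelled one, with a median log2 ratio of 7.64. All 3 lay under 5 CPM in the day 0 labelled library and so passed the threshold only through the others. Their shared direction therefore follows in part from the threshold and is no support for the list. In all, 15 of the 108 members (13.9%) were at least 2-fold higher in this comparison, against 11.7% of all symbols, and 21 (19.4%) were 0.5 times or less, against 10.6%. Of 282 other long non-coding symbols, 11.3% were at least 2-fold higher and 21.6% were 0.5 times or less. The median log2 ratio of the members was -0.25, and that of all symbols 0.02. Below the threshold, LINC00458, another RNA of pluripotent cells, had 10, 84 and 2 UMIs, or 0.353, 4.07 and 0.0485 CPM. LINC00618 had 12, 0 and 3 UMIs, so that its highest value was not in the day 2 labelled library. LINC01108 had 1, 6 and 0 UMIs and LINC00545 0, 7 and 7 UMIs, too few to order at this depth.

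In single cells the differences were seen as shares of cells with a UMI after every cell was thinned to 1000 UMIs. LINC00678 was seen in 0%, 10.4% (9.23–11.7) and 0.120% of cells, where 0 of 2290 cells allows a share of up to 0.131%. LINC01194 was seen in 0.175%, 12.3% and 1.44% of cells, and LINC00371 in 0.131%, 38.1% and 26%. Without thinning, LINC00678 had a UMI in 0.0437%, 39.8% and 0.598% of cells, LINC01194 in 1.92%, 44.0% and 8.73%, and LINC00371 in 2.58%, 76.7% and 68.3%. Each of these shares was lowest in the day 0 labelled library. The day 2 and day 6 labelled libraries were also split by whether a cell kept a POU5F1 UMI after thinning. In the day 6 labelled library, with 1085 such cells of 4180, LINC00371 stood at 290 CPM in cells with POU5F1 and 274 CPM in the others, a ratio of 1.06 (1.01–1.10). LINC01194 had a ratio of 1.05 (0.848–1.30) and LINC01356 of 0.901 (0.646–1.24). In the day 2 labelled library the ratios were 1.08 (1.03–1.12) for LINC00371, 1.09 (1.01–1.18) for LINC01194 and 1.26 (1.03–1.54) for LINC01356. POU5F1 itself, which the split used, differed by 1.88-fold between these cells in the day 6 labelled library and by 1.48-fold in the day 2 labelled one, far less than between libraries. LINC00678 had a ratio of 1.19 (1.09–1.31) in the day 2 labelled library and of 1.93 (0.750–4.63) in the day 6 labelled one, where it had 25 UMIs in all. LINC01492, at similar levels in all libraries, had a ratio of 1.12 (1.02–1.23) in the day 2 labelled library. Cells in which POU5F1 was found had lower median UMIs, 3554 against 4890 in the day 6 labelled library.

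**Figure D1:**
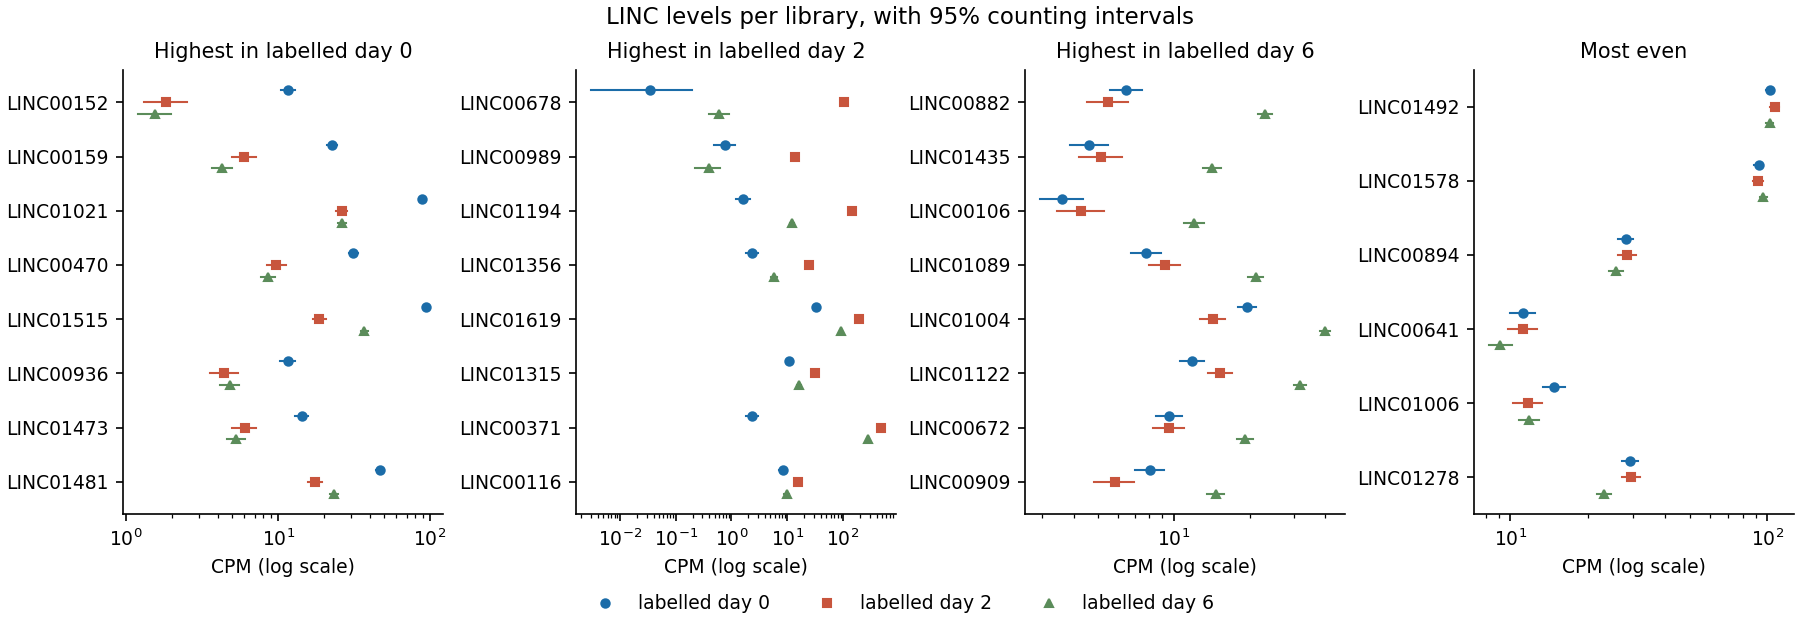
Levels in CPM on log axes of the members that led each library and of the 6 most even members, with circles for the day 0 labelled library, squares for day 2 and triangles for day 6, and lines for 95% counting intervals. LINC00678 spans from 0.0353 to 104 CPM, whereas the 3 points of LINC01492 lie between 102 and 107 CPM.

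The day 0 labelled library, which had the highest neural progenitor markers, was the highest for 51 of the 108 members (47.2%), where it was the highest for 31.7% of all symbols. The day 2 labelled library led for 28 members (25.9%, against 30.0% of all symbols) and the day 6 labelled one for 29 (26.9%, against 38.3%). For 282 other long non-coding symbols these shares were 40.1%, 25.5% and 34.4%, so that a lean to the day 0 labelled library was not particular to the members. LINC01021, also named PURPL and known as a target and regulator of p53, stood at 88.5 CPM (85.1–92.1), 26.2 CPM (24.0–28.5) and 26.4 CPM (24.8–28.0), 3.35-fold (3.12–3.61) above the next library. The other 2 libraries lay within each other's interval. LINC01515, at chr10:65571425-65766541, stood at 93.7, 18.7 and 36.9 CPM, 2.54-fold (2.38–2.71) above the next library. LINC01481, the renewal-associated RNA PRANCR, stood at 46.9, 17.5 and 23.3 CPM. Its RefSeq position overlaps that of the coding gene CNOT2 (108, 111 and 135 CPM), so that their reads may not be separable. LINC00470 stood at 31.2, 9.74 and 8.58 CPM and LINC00159 at 22.7, 5.96 and 4.29 CPM. LINC01473 stood at 14.3, 6.01 and 5.28 CPM, and its ratio of 2.38 to the next library was 3.68 in cells of 3000 to 10000 UMIs. In those cells the ratio to the next library was 4.70 for LINC00159 and 2.88 for LINC01515, against 3.81 and 2.54 in all kept cells. LINC00470 stood there at 21.8, 5.88 and 6.37 CPM. Its ratio to the day 2 labelled library, the next over all kept cells but the lowest there, was 3.72, against 3.20. LINC00936, now ATP2B1-AS1, stood at 11.6, 4.41 and 4.82 CPM and overlaps ATP2B1 on the opposite strand; the strand setting of the counts is not given, so the reads of such pairs may not be separable.

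LINC00152, now CYTOR and studied for its part in cell growth and the cytoskeleton, stood at 11.7 CPM (10.4–13.0), 1.84 CPM (1.30–2.53) and 1.55 CPM (1.19–1.98). It lies at chr2:87455427-87521518 and has a near-identical copy elsewhere on that chromosome, so that the division of reads is uncertain. It was 6.34-fold (4.52–9.12) above the next library, and 10.2-fold with at most 10% mitochondrial UMIs. Its level in the day 6 labelled library fell from 64 to 36 UMIs without the cells that clustered with another library. Among members under 10 CPM, LINC01579 stood at 7.97, 0.776 and 1.11 CPM, LINC00972 at 5.50, 0.776 and 0.170 CPM, LINC01239 at 9.10, 2.18 and 1.21 CPM and LINC01003 at 5.54, 1.26 and 1.33 CPM. In the day 2 labelled library they had 16, 16, 45 and 26 UMIs. All 4 were highest in the day 0 labelled library, with few UMIs in the others.

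Members that led in the day 6 labelled library did so by at most 3.55-fold among those named, over all kept cells. LINC00882 stood at 6.46 CPM (5.56–7.46), 5.48 CPM (4.52–6.59) and 22.9 CPM (21.5–24.5), 3.55-fold (3.03–4.19) above the next library. LINC01435, at chr10:107871576-108069293, stood at 4.62, 5.14 and 14.2 CPM. LINC00106 stood at 3.6, 4.27 and 12 CPM. Its lead over the next library, the day 2 labelled one, was 2.82-fold. In cells of 3000 to 10000 UMIs LINC00106 stood at 2.68, 1.05 and 10.4 CPM, from 13, 5 and 77 UMIs. Its ratio to the day 2 labelled library, the lowest in those cells, was 9.94. For LINC00882 the ratio of 3.55 was 2.34 with at most 10% mitochondrial UMIs. LINC01089, which overlaps RHOF, stood at 7.76, 9.21 and 21.1 CPM. LINC01004 stood at 19.6, 14.3 and 39.8 CPM and LINC01122 at 11.8, 15.3 and 31.6 CPM. LINC00672, now the coding gene LASP1NB, stood at 9.56, 9.55 and 19.2 CPM, and LINC00909, now ZNF407-AS1, at 8.04, 5.82 and 14.7 CPM. For all 8 the day 0 and day 2 labelled libraries were within 1.5 times of each other. Of all members, 15 were at least 2-fold higher in the day 6 labelled library than in the day 2 labelled one, against 9.02% of all symbols, and 12 were 0.5 times or less, against 7.59%, with median log2 ratios of -0.03 for members and 0.11 for all. Against the day 0 labelled library, 22 members were at least 2-fold higher, against 12.2% of all symbols, and 20 were 0.5 times or less, against 7.03%, with medians of -0.25 and 0.12. Of other long non-coding symbols, 17.4% were at least 2-fold higher and 8.16% were 0.5 times or less against the day 2 labelled library. Against the day 0 labelled one both shares were 13.5%. The comparisons share libraries, so their counts are not independent.

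Members listed for neural tissue did not share an order. Of 8 listed, 5 were members: LINC00461 and LINC00599 were at least 2-fold higher in the day 2 labelled library than in the day 0 labelled one, and LINC01021 was 0.5 times or less. LINC00461, also MIR9-2HG, hosts a copy of miR-9, a microRNA of neural progenitors, and stood at 1.16, 6.06 and 0.872 CPM, the highest in the library with the lowest PAX6. In the day 2 labelled library 116 of its 125 UMIs were in deep cells, at 8.23 CPM in cells of 10000 or more UMIs and 1.69 CPM in cells of 1000 to 3000. Its mature products, from RefSeq (GRCh38.p14, minus strand, chr5:88666902-88666924 and chr5:88666866-88666887), are shown because the host is counted here and the microRNA is not; capitals mark the seed, bases 2 to 8.
hsa-miR-9-5p: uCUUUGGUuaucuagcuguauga
hsa-miR-9-3p: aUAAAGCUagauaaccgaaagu

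LINC00599, now MIR124-1HG and a host of the neuronal microRNA miR-124, stood at 0.459 CPM (0.244–0.784), 15.1 CPM (13.4–16.9) and 9.60 CPM (8.67–10.6), and was lowest in the day 0 labelled library. LINC00632, from whose locus the circular RNA CDR1as arises, stood at 13.6, 10.1 and 7.08 CPM, highest in the day 0 labelled library. LINC01122 led in the day 6 labelled library and LINC01021 in the day 0 labelled one, as given above. LINC01551, LINC01158 and LINC00403 stayed under 5 CPM in each library. The neural list thus had members led by each of the 3 libraries.

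For 52 of the 108 members the highest library was under 2 times the lowest, against 65.9% of all symbols. The most even over all kept cells were LINC01492, at 102 CPM (98.7–106), 107 CPM (102–111) and 102 CPM (99.1–105), and LINC01578, at 92.4, 91.7 and 96.3 CPM. In cells of 3000 to 10000 UMIs they were less even, LINC01492 at 106, 130 and 109 CPM and LINC01578 at 90.5, 99.3 and 111 CPM. LINC01578, at chr15:92882843-92898747, is CHASERR, an RNA known to restrain the neighbouring remodeller gene CHD2. LINC00894 stood at 28.1, 28.5 and 25.8 CPM and LINC01278 at 29.2, 29.5 and 23.1 CPM. LINC00894 overlaps the coding gene CXorf40B on the opposite strand and LINC01278 overlaps SPIN4 on the same strand, so that reads may be shared. LINC00641 stood at 11.2, 11.2 and 9.14 CPM and LINC01006 at 14.8, 11.7 and 11.8 CPM. Of 10 LINC RNAs listed as broadly present, 7 were members; 1, LINC00152, was 0.5 times or less in the day 2 labelled library against day 0 and none was at least 2-fold higher. LINC00665, studied in several tumours, stood at 62.6 CPM (59.7–65.6), 97.1 CPM (92.9–101) and 137 CPM (134–141), with no overlap of the intervals. LINC00662 stood at 43.5, 31.8 and 36.4 CPM, LINC00467 at 17.8, 12.4 and 19.3 CPM, LINC00667 at 17.3, 13.3 and 16.8 CPM and LINC00847 at 10.2, 5.91 and 6.35 CPM.

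The 5 members among the 8 symbols listed for small proteins differed by less than 2-fold between libraries. The plan added every member whose symbol is an older name of a coding gene, but the counts left these out. Not all of those were even: LINC00371 stood at 2.36, 472 and 278 CPM and LINC00672 at 9.56, 9.55 and 19.2 CPM. LINC01420, now NBDY, encodes a peptide of the P-body, where messenger RNA is decapped, and stood at 120 CPM (116–124), 91.8 CPM (87.7–96.0) and 116 CPM (112–119). LINC00998 and LINC00493, now SMIM30 and SMIM26, encode small membrane proteins and stood at 60.8, 79.2 and 49.1 CPM and at 49.8, 51.6 and 37.8 CPM. LINC00116, now MTLN, encodes the mitochondrial peptide mitoregulin and stood at 8.26, 15.5 and 9.81 CPM, 1.58-fold (1.36–1.83) above the next library. LINC00094, now BRD3OS, stood at 12.6, 10.1 and 18.6 CPM and overlaps BRD3 on the opposite strand. None of these 5, the part of a list of 8 that reached 5 CPM, was at least 2-fold higher or 0.5 times or less in any comparison. LINC00854, now CCDC200, stood at 41.8, 81.0 and 81.1 CPM and overlaps TMEM106A on the opposite strand. LINC01125, now C2orf92 and under 10 CPM, stood at 3.21, 2.52 and 7.08 CPM.

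Of the members, 10 (9.26%) were at least 4-fold above both other libraries, against 3.23% of all symbols, 2.75% of 11444 coding symbols and 6.38% of 282 other long non-coding symbols. They are LINC00678, LINC00989, LINC01194, LINC01356 and LINC00461, which led in the day 2 labelled library, and LINC00152, LINC01579, LINC00972, LINC01239 and LINC01003, which led in the day 0 labelled one; 0 led in the day 6 labelled one. The lower bound of the ratio was also at least 4 for 6 of them, which leaves out LINC01356, LINC00461, LINC01239 and LINC01003. The median ratio of the highest to the next library was 1.44 for members and 1.26 for all symbols. Since low symbols vary more by counting alone, coding symbols were set beside members of the same level. Among symbols with a highest level of 5 to 10 CPM, 5 of 30 members (16.7%) and 4.90% of coding symbols were specific in this sense. From 10 to 20 CPM these were 2 of 36 members (5.56%) and 3.51% of coding symbols, and from 20 to 50 CPM 1 of 22 (4.55%) and 2.11%. Of 10 members from 50 to 100 CPM 0 were specific, against 1.67% of coding symbols. At 100 CPM and over, LINC00678 and LINC01194 made up 2 of 10 members (20%), against 2.54%. Weighted to the levels of the members, 3.35% of coding and 6.68% of other long non-coding symbols were specific. With a minimum of 10 CPM the members' share was 6.41% (5 of 78), below the 8.0% of other long non-coding symbols and above the 2.76% of coding ones. The groups of members are small, and the 20% at 100 CPM and over rests on 2 RNAs.

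**Figure D2:**
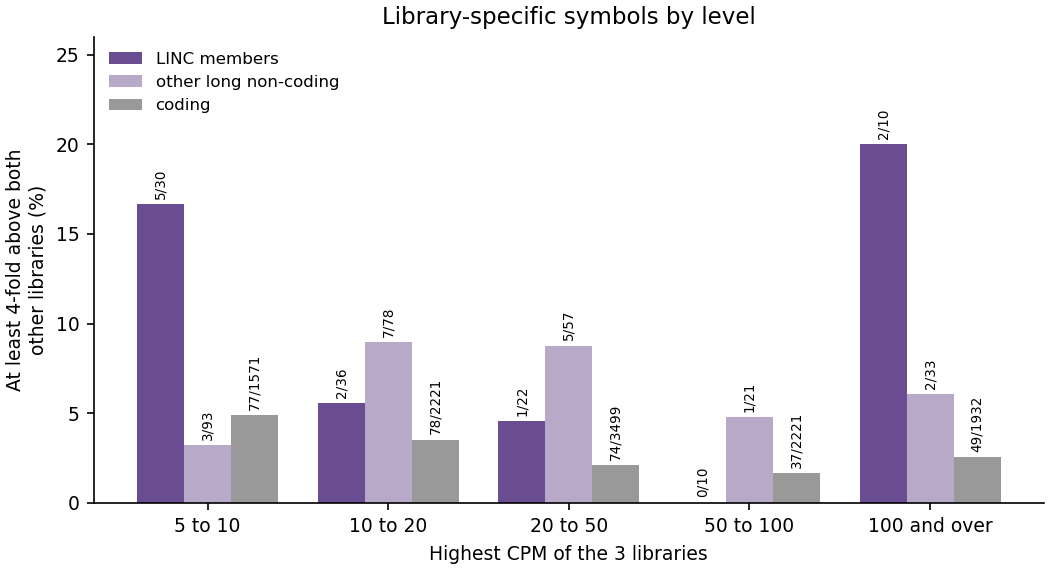
Share of symbols at least 4-fold above both other libraries (vertical axis, %) by their highest CPM (horizontal axis), for the 108 LINC members, other long non-coding symbols and coding symbols, with the counts written above the bars. The members stand at 16.7% from 5 to 10 CPM and at 20% at 100 CPM and over, each from 5 or fewer symbols.

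LINC00486, at chr2:32825441-32842597 (plus strand), held most of the member UMIs. It stood at 13877 CPM (1.39% of UMIs) in the day 0 labelled library, 16655 CPM (1.67%) in the day 2 labelled one and 12112 CPM (1.21%) in the day 6 labelled one, had a UMI in every kept cell, and had the third, the second and the fourth highest UMI count of all symbols. It made up 87.0%, 85.6% and 83.1% of member UMIs, and the other 107 members together held 2080, 2810 and 2457 CPM. Its share of a cell's UMIs had a median of 1.40%, 1.71% and 1.23%, with 5th to 95th percentiles of 1.13 to 1.73%, 1.31 to 2.18% and 0.931 to 1.64%. In barcodes under 300 UMIs, far below the filter, it still took 1.02%, 1.10% and 0.901% of UMIs. In barcodes of 1000 to 3000 UMIs these shares were 1.36%, 1.64% and 1.23%, and in those of 10000 or more 1.38%, 1.60% and 1.19%, so that the share hardly moved with depth among barcodes that passed the filter on UMIs. In cells under 5% mitochondrial UMIs its level was 1.07, 1.10 and 1.09 times that of the other cells. The direction turned round with mitochondrial UMIs left out of the total, at 0.942 (0.930–0.953), 0.952 (0.945–0.960) and 0.962 (0.955–0.970) times. The longest run of a single base in its 4 GENCODE transcripts is 5 bases. Whether all these UMIs come from this RNA was not tested, and its gene lies 4.39 kb from the coding gene TTC27, which stood at 23.0, 34.1 and 23.6 CPM.

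**Figure D3:**
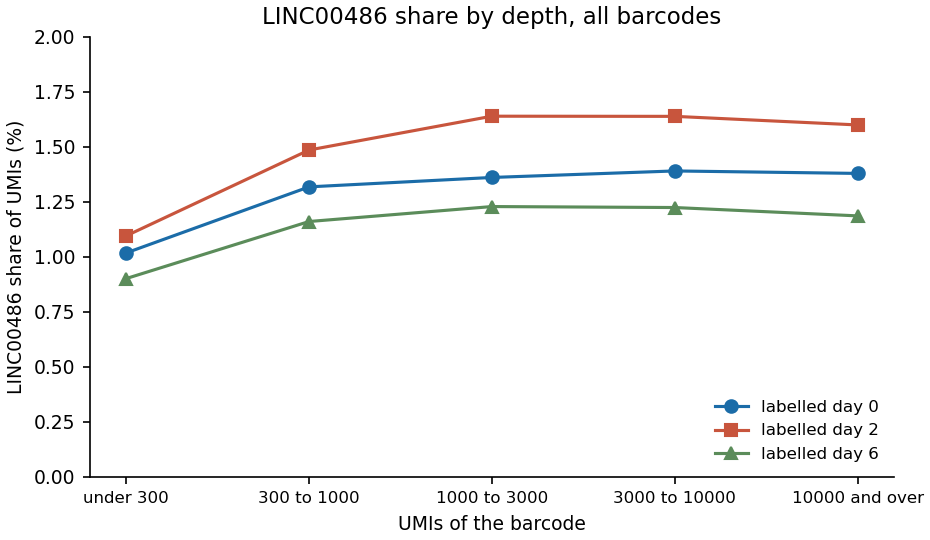
Share of UMIs from LINC00486 (vertical axis, %) in all barcodes grouped by their UMIs (horizontal axis), with circles, squares and triangles for the day 0, day 2 and day 6 labelled libraries. The share lies between 0.901% and 1.10% in barcodes under 300 UMIs and between 1.19% and 1.60% in those of 10000 and over, with the order of the libraries kept.

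The other 107 members were thinly spread over cells. A kept cell held a UMI of a median of 13, 7 and 7 of them, at median UMIs of 8770, 3814 and 4429. After thinning to 1000 UMIs a cell held on average 1.84, 2.28 and 2.11 of them, and 83.2%, 90.3% and 88.3% of cells held at least 1. Over all members the median share of cells with a UMI was 9.93%, 6.66% and 8.01%, and 0.939%, 0.868% and 0.885% after thinning. The day 0 labelled library thus had the lowest mean number of members per thinned cell but the highest median share. LINC00371 alone was seen in 0.131%, 38.1% and 26% of thinned cells. In at least 10% of cells 51, 32 and 42 of the 107 were seen, and in at least 50% 3, 1 and 2 were.

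Member levels moved with the depth of the cells within each library. Over the 102, 98 and 100 members with at least 50 UMIs in the cells compared, the median ratio of the level in cells of 10000 or more UMIs to that in cells of 1000 to 3000 was 1.33, 1.25 and 1.58. For all symbols it was 1.02, 1.04 and 1.04, and for other long non-coding symbols 1.22, 1.36 and 1.31. LINC01619 was 2.62-fold (1.42–5.49), 9.36-fold (7.04–12.7) and 6.38-fold (4.80–8.68) higher in deep cells. LINC00470 was 2.39-fold (1.33–4.82), 7.14-fold (2.40–34.9) and 5.54-fold (2.35–17.2) higher, with 11, 3 and 5 UMIs in shallow cells. LINC01515 was 2.30-fold (1.64–3.36), 5.10-fold (2.56–11.9) and 3.91-fold (2.73–5.82) higher, with 33, 8 and 30 such UMIs. LINC01122 was 3.17-fold (1.07–15.4), 2.26-fold (1.32–4.19) and 3.35-fold (2.34–4.99) higher, with 3, 14 and 30. In the other direction, LINC01492 stood at 0.847 (0.689–1.05), 0.742 (0.645–0.858) and 0.684 (0.617–0.761) times its level in shallow cells. LINC00678 in the day 2 labelled library had a ratio of 0.830 (0.717–0.965) and LINC01194 of 1.12 (0.977–1.29). The depth of the cells differs between the libraries, and its part in the differences between them was not tested beyond the restriction to cells of 3000 to 10000 UMIs. With that restriction 33 members, not 21, were 0.5 times or less in the day 2 labelled library against day 0, and the share of all symbols was 15.5%, not 10.6%.

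**Figure D4:**
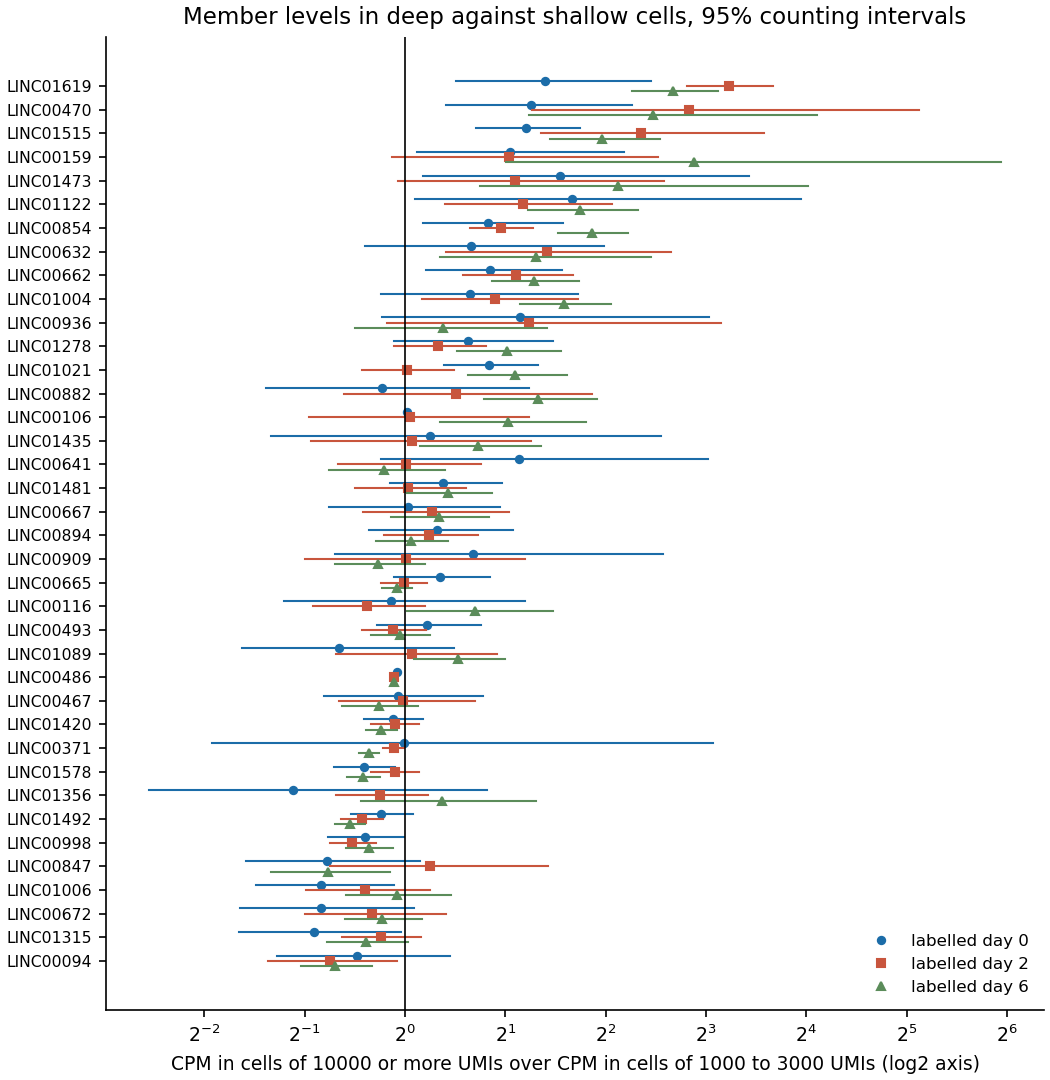
Level of 38 named members in cells of 10000 or more UMIs over that in cells of 1000 to 3000 UMIs (horizontal log2 axis), with 95% counting intervals and 1 marker per library. LINC01619 lies furthest to the right with ratios of 2.62 to 9.36, and LINC01492 lies left of 1 with ratios of 0.684 to 0.847.

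Cells also differed in mitochondrial share, and 20.2%, 49.0% and 39.4% of kept cells had under 5% mitochondrial UMIs. In these cells the 107 members without LINC00486 summed to 0.668 (0.642–0.695), 0.812 (0.796–0.828) and 0.801 (0.786–0.817) times their level in the other cells, while other long non-coding symbols stood at 0.664, 0.874 and 0.848 times and coding symbols at 1.17, 1.19 and 1.16 times. The nuclear RNA MALAT1 stood at 0.410, 0.436 and 0.863 times. Totals here include the mitochondrial UMIs by which the cells were split. With these left out of the total, coding symbols stood at 1.03, 1.03 and 1.03 times. The 107 members then stood at 0.589, 0.703 and 0.705 times and other long non-coding symbols at 0.585, 0.758 and 0.746 times. The low cells were also shallower, with median UMIs of 2768 against 11763, 3170 against 5904 and 2480 against 8794. Among cells of 2000 to 6000 UMIs the summed member ratio was 0.681, 0.943 and 0.839. Over the 23, 29 and 45 members with at least 50 UMIs there, the median ratio was 0.705, 1.04 and 0.820, and 16 of the 29 in the day 2 labelled library were higher in the low cells. LINC01619 stood at 0.112, 0.0474 and 0.163 times its level in the other cells, LINC01473 at 0.218, 0.153 and 0.203 times and LINC00854 at 0.402, 0.163 and 0.275 times. LINC01492 stood at 1.47, 1.59 and 1.53 times and LINC00998 at 1.29, 1.58 and 1.39 times. These values of single members use totals with the mitochondrial UMIs. On such totals 24, 31 and 30 of the 101, 98 and 101 members with at least 50 UMIs were higher in the low cells, with median ratios of 0.637, 0.710 and 0.680. The 5 members named above, picked for their values, kept 1 direction in each library. LINC00667 did not, at 0.909, 1.31 and 1.09 times.

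The members were also described by their position and promoters. Of 102 members matched in GENCODE 29, 27 overlap a coding gene; the 10 specific members overlap none. The median member had 8 exon blocks, 3513 exon bases and a span of 88.8 kb, and the specific ones 6.5, 2051 and 131 kb. For 84 members a coding gene with at least 5 CPM lay within 200 kb, and in 37 (44.0%) it was highest in the same library as the member. For coding symbols and their nearest coding neighbour this was 40.0%. The 4 specific members with such a neighbour all shared its highest library, against 45.6% of specific coding symbols. LINC01356 lies 61.2 kb from SLC16A1, a lactate transporter gene at 88.8, 229 and 181 CPM. LINC01239 lies 190 kb from DMRTA1 at 24.7, 4.36 and 1.89 CPM, LINC01003 28.1 kb from KMT2C at 81.5, 48.9 and 77.4 CPM, and LINC00678 111 kb from LIN7C at 45.1, 54.9 and 44.2 CPM. The neighbours KMT2C and LIN7C differed by less than 2-fold.

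RefSeq promoters, from 250 bases before to 50 after the start, were at hand for 74 members. The median number of CG dinucleotides was 9 in members, 14 in all 27305 promoters and 22 in 15843 coding ones. It was 6 in the 5 specific members with a promoter and 14 in the 37 members under 2-fold between libraries. The numbers varied within both groups: the even LINC01492 held 2 CG and the specific LINC01003 held 28. A pair of promoters far apart in CG number is printed, for LINC01356, which led in the day 2 labelled library, and for the even LINC01578. They lie at chr1:112850594-112850893 (minus strand, 6 CG) and chr15:92882593-92882892 (plus strand, 36 CG) in GRCh38.p14, with each CG in capitals.
LINC01356: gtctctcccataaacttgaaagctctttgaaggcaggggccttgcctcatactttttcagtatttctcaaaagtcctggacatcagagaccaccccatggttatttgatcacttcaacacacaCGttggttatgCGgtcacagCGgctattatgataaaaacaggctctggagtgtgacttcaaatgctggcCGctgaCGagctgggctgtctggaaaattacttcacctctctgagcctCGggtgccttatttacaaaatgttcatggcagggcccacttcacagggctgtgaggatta
LINC01578: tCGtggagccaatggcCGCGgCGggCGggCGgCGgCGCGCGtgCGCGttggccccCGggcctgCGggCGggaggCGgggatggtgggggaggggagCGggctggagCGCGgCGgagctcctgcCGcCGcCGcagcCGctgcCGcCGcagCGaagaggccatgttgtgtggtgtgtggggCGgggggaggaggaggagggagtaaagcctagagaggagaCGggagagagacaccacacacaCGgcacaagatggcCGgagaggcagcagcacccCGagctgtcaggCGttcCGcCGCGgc

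Letters of known motifs were searched on both strands of the 300 bases. The CCAAT box letters CCAAT were found in 33 of 74 members (44.6%) and in 35.7% of all promoters, and GATTA, which holds the core of OTX sites, in 18 (24.3%) and 20.1%. TATAAA was found in 9 (12.2%) and 12%, and CGCG in 35 (47.3%) and 49.6%. ATTGTT, within the SOX site, was found in 3 (4.05%) and 10.3%. The octamer ATGCAAAT was found in 1 (1.35%) and 1.80%, and its variant ATGCTAAT in 0, against 0.700%. The promoter of LINC01356 held GATTA and that of LINC01578 CCAAT.

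Long non-coding RNAs outside the LINC names were read from 3 further lists. In the pluripotency list, 4 of 8 reached 5 CPM, and ESRG (0.282, 521 and 135 CPM), FOXD3-AS1 (0.0353, 116 and 3.37 CPM) and TUNAR (6.07, 16.9 and 14.8 CPM) were at least 2-fold higher in the day 2 labelled library than in the day 0 labelled one. ESRG stood in the day 6 labelled library at 0.258 times its level in the day 2 labelled one, beside 0.588 for LINC00371 and 0.00585 for LINC00678. MEG3, an imprinted RNA, stood at 19.1, 0.921 and 5.02 CPM and was the member of this list at 0.5 times or less. In the neural list, 9 of 13 reached 5 CPM, and 5 of them were 0.5 times or less in the day 2 labelled library against day 0. These were NR2F2-AS1 (14.1, 0.194 and 0.897 CPM), NR2F1-AS1 (15.4, 2.91 and 8.26 CPM), SOX21-AS1 (15.1, 1.07 and 22.4 CPM), LHX5-AS1 (43.7, 1.45 and 56.4 CPM) and EMX2OS (6.32, 0.533 and 1.82 CPM), all named after a transcription factor gene beside them. RMST, at 49.7, 127 and 107 CPM, was at least 2-fold higher. In the broad list of 18, 17 were measured, of which DANCR (173, 393 and 334 CPM) and SNHG8 (60.2, 134 and 87.7 CPM) were at least 2-fold higher in that comparison and MALAT1 (4117, 799 and 639 CPM) and NEAT1 (27.2, 5.53 and 5.96 CPM) were 0.5 times or less. MALAT1 and NEAT1 are nuclear RNAs, and they stood highest in the day 0 labelled library. The list did not share this order, since FTX and TUG1 stood highest in the day 6 labelled library. Whether the place of an RNA in the cell bears on the order of the members was not tested.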

How the data were processed

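Single H9 cells were measured in 3 libraries, 1 per label. The authors deposited whole-number counts per gene symbol and barcode, taken as UMI counts since the method uses UMIs. STAR and hg38 are named per the submitters' processing notes; the annotation, the strand setting and the collapsing of duplicates were not given in the sources used here. Letters after the days in the labels are unexplained.

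Cells of at least 1000 UMIs, 500 genes and at most 25% mitochondrial UMIs were kept; doublets were not removed. UMIs were summed over cells and given as CPM. Levels have exact Poisson, ratios exact conditional binomial and shares Clopper-Pearson 95% intervals; they leave out variation between cultures. A ratio against 0 UMIs uses 3 UMIs. All symbols at 5 CPM or more entered each count. Clusters came from scanpy 1.11.5 (2000 variable genes, 30 components, 15 neighbours, Leiden resolution 0.5, igraph 0.11.9). All 108 members matched RefSeq, 26 by an older symbol, and 102 GENCODE 29; 74 had a RefSeq promoter. Calculations were tested on simulated data. Some transcript sequences are not reported here.

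Named members reached 10 CPM and were the 8 leading each library by the lower bound of the ratio to the next, the 6 with the highest mean, the 6 most even, those now coding and those on the lists; the specific members under 10 CPM, and LINC01405, LINC00698, LINC01572 and LINC01125, were named after their values were seen. The members, lists and rules were chosen with earlier results of these data known. Alternatives were other filters, scalings (TMM from edgeR 4.0.16, size factors), level bins and cells; 3 of them, cells of 3000 to 10000 UMIs, low mitochondrial share at 2000 to 6000 UMIs and the lower bound, were chosen after seeing the data.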

Additional observations from a re-analysis of the deposited data

How the results depend on the processing

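No paired analysis was possible because each label has 1 library. Of 144 recomputed values of the summary results, 132 were within the limits set for no change. The number of members 0.5 times or less in the day 2 labelled library against day 0 was 21, but 35 with at most 10% mitochondrial UMIs and 33 in cells of 3000 to 10000 UMIs; the shares of all symbols were 10.6%, 16.7% and 15.5%. The 10 members at least 4-fold above both other libraries became 6 with the lower bound at 4 or more. With a minimum of 10 CPM the members' share of 9.26% at least 4-fold above both other libraries was 6.41%, against 8.0% of other long non-coding symbols, where it had been above their 6.68%. The median share of cells with a UMI of 9.93%, 6.66% and 8.01% was 0.939%, 0.868% and 0.885% after thinning to 1000 UMIs, by construction. The summed member level in cells of low over usual mitochondrial share was, in the day 0 labelled library, 0.668, and 0.638 with a limit of 3% and 0.589 with mitochondrial UMIs left out of the total. In the day 2 labelled library it was 0.812, and 0.943 in cells of 2000 to 6000 UMIs and 0.703 without mitochondrial UMIs in the total. In the day 6 labelled one it was 0.801, and 0.839 and 0.705 in the same settings. Of the values of single members, 381 stayed within the limits, 91 moved and 1 reversed. Of 43 members per setting, 32 moved with at most 10% mitochondrial UMIs, 25 in cells of 3000 to 10000 UMIs and 22 with the mean of single-cell CPM. Only ratios of at least 2 over all kept cells could be counted as reversed, so a smaller ratio that crossed 1 is not counted so. The value that reversed was LINC01619 in the day 2 labelled library over day 6, which went from 2.07 to 0.850 with at most 10% mitochondrial UMIs. The cause was not tested. Depth limits the members under 10 CPM, whose levels rest on few UMIs outside their highest library.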

Other observations

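Some members fell outside the rule for named genes because 2 libraries were high, and were picked after their values were seen. LINC01405, now VHRT, at chr12:110936602-110937448, stood at 3.46 CPM (2.81–4.21) in the day 0 labelled library, 84.2 CPM (80.3–88.2) in the day 2 labelled one and 58.5 CPM (56.2–60.9) in the day 6 labelled one. It had a UMI in 3.67%, 35.9% and 31.1% of kept cells, and in 0.218%, 8.14% and 6.29% after thinning to 1000 UMIs. LINC00698, at chr3:63102688-63125062, stood at 5.75 CPM (4.90–6.70), 81.2 CPM (77.4–85.2) and 103 CPM (100.1–106). Both were low in the day 0 labelled library and high in the other two, as LINC00371 was. LINC01572 went the other way, at 103, 42.7 and 86.8 CPM, and was lowest in the day 2 labelled library.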
